A study of Mus musculus with 27 samples.

Results

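Retinoic acid is made from retinol and removed again inside the embryo, and the genes for its synthesis, breakdown, binding and response are described here in limb buds, in limb bud-like cells from mouse embryonic stem (ES) cells, and in other tissues of the embryo. The 10 genes were taken by name from a table of 23279 genes: Rdh10, Aldh1a1, Aldh1a2 and Aldh1a3 of the synthesis, Cyp26a1, Cyp26b1 and Cyp26c1 of the breakdown, Crabp1 and Crabp2, which bind retinoic acid in the cytoplasm, and the receptor gene Rarb. The study grew limb bud organoids from ES cells and compared their mesenchyme with embryonic tissues by mRNA sequencing. A total of 27 libraries gave 9 groups of 3, and 26 were used.

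ES-FLB and ES-HLB were forelimb and hindlimb type mesenchyme of line EB5 Hand2::GFP +/-, a reporter line with the fluorescent gene in 1 copy of Hand2, and were sorted for the reporter on day 9 of culture. Aggregates of ES-FLB had been given retinoic acid on days 5 to 6. Those of ES-HLB had been given an antagonist of retinoic acid on days 6 to 6.5, and both had received a BMP inhibitor and a Wnt protein later. Limb type in culture therefore cannot be told apart from these treatments, as no untreated group was analysed here. The embryonic groups were whole tissue cut from 3 Slc:ICR embryos, with no statement on pooling: forelimb buds (FLB) and hindlimb buds (HLB) labelled E10.0, here called early, and, from E10.5, FLB, HLB, cardiac tissue (Ca), branchial arch (BA) and the tail bud (TB). The study's own account places the early FLB at a younger stage than the early HLB, so limb type and stage cannot be told apart in early buds. Whole tissue and sorted cells hold different mixtures of cells, and in such bulk samples fewer cells of a type and less RNA per cell cannot be told apart.

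Retinol is oxidised to retinal, mainly by RDH10 in the embryo, and retinal is oxidised to retinoic acid by the ALDH1A enzymes, of which ALDH1A2 serves most of the early trunk mesoderm. The CYP26 enzymes hydroxylate retinoic acid and so clear it, and CYP26B1 is known for keeping the distal limb bud low in retinoic acid. Retinoic acid that reaches the nucleus binds receptors that sit with RXR partners on direct repeats in DNA, and Rarb and Cyp26a1 are textbook target genes with such repeats beside their start sites.

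These repeats were read from the RefSeq promoter windows of GRCm38.p6 (250 bases before to 50 after a start). They are set beside the levels of Rarb and Cyp26a1. In culture only Cyp26a1 passed the test, where only its level in ES-HLB had let it be tested. A difference between both genes was not tested. A direct repeat was searched as any pair of core motifs in the same orientation, on both strands, with 5, 2 or 1 bases between them, the core being AGGTCA or its form GGGTCA or the form AGTTCA or the form GGTTCA. Windows were found for 7 of the 10 genes (8 windows, as Aldh1a1 has a pair), and none was found for Rdh10, Aldh1a3 and Crabp2. The repeat with 5 bases between core motifs stood in 2 of the 8 windows, those of Rarb and Cyp26a1, and in 0.0974% of the 32851 windows of all genes. Repeats with 2 bases (0.268% of all windows) and with 1 base (0.222%) stood in 0 of the 8. Rarb and Cyp26a1 were known beforehand as targets with repeats, so these counts are a description and no test. The elements are shown to compare both genes, in capitals for the core motifs and in the orientation of the repeat:
Rarb element, chr14:16575513-16575529, minus strand: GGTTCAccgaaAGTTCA
Cyp26a1 element, chr19:37697776-37697792, minus strand: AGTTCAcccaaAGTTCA
They shared 15 of 17 bases. The element of Rarb lay 53 to 37 bases before the start site inside its RefSeq window, on the strand of the gene. The RefSeq record of Rarb reaches further upstream, to 17082331, and so includes the element, shown here within its neighbouring bases:
Rarb, chr14:16575507-16575535, minus strand: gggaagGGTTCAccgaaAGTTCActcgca
The element of Cyp26a1 lay 32 to 16 bases before the start site inside its window. It ran opposite to the gene, so that the core motifs read TGAACT on the plus strand. The RefSeq gene record begins further upstream, at 37697738, and so includes the element, while the GENCODE gene begins at 37697798:
Cyp26a1, chr19:37697770-37697798, plus strand: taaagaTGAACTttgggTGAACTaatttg
A matching repeat is a description of letters and was not tested for binding.

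Levels are given as CPM, the reads of a gene in 1000000 reads on genes, rescaled between libraries, and changes as log2 differences of CPM + 0.5, positive where the first group is higher. Libraries held 5543756 to 8541932 reads, except for the early limb buds with 19642250 to 22142301, so 3 reads corresponded to 0.351 to 0.541 CPM in most libraries and 0.135 to 0.153 CPM in early buds. Replicate 2 of E10.5 HLB had 13642 genes listed at 0 against 8496 and 8477 in the other two and was left out. Cardiomyocyte genes summed to 10639 to 12736 CPM in Ca and to at most 20.6 elsewhere, and tail bud genes to 231 to 280 CPM in TB and to at most 5.06 elsewhere. The sorted ES-FLB and ES-HLB cells held 23.1 to 39.7 CPM of endothelial genes, against 220 to 818 in every tissue library. They also held 88.1 to 190 CPM of surface ectoderm and epithelium genes. These summed to 205 to 339 CPM in limb buds, BA and TB and 55.9 to 97.5 CPM in Ca.

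**Figure D1:**
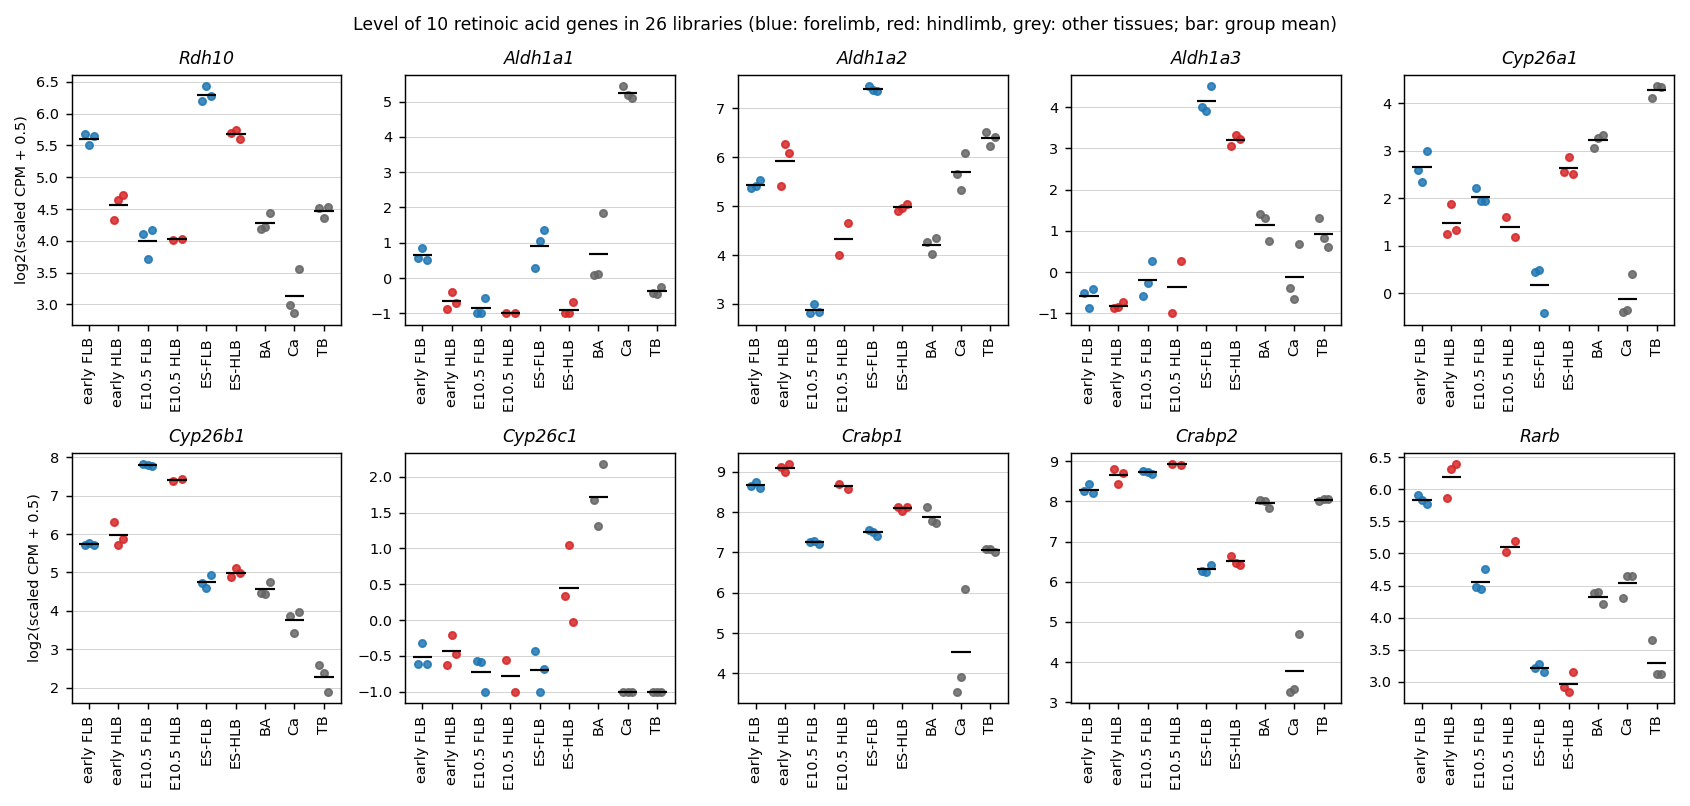
Level of each gene, as log2(scaled CPM + 0.5), in the 26 libraries of 9 groups on the x axis; points are libraries and bars are means of the points. Blue points are forelimb, red points hindlimb and grey points other E10.5 tissues. Aldh1a2 was highest in ES-FLB and Cyp26b1 in E10.5 FLB, and a wide spread within Ca is seen for Crabp1 (11.2, 14.7 and 68.0 CPM).

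In culture the synthesis genes Aldh1a2, Aldh1a3 and Rdh10 were higher in ES-FLB, the cells given retinoic acid. ES-FLB and ES-HLB were compared to ask how the cells given retinoic acid and those given its antagonist differed on day 9, after the days on which the agents had been given. Of the 10 genes, 8 were tested and 6 passed an adjusted p of 0.05 (limma), 3 higher and 3 lower in ES-HLB, beside 25.1% of the 13132 genes tested. The median log2 difference of the 8 was -0.03, against 0.00 for all genes tested. Cyp26a1, Crabp1 and Crabp2 were the genes higher in ES-HLB.

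Aldh1a2, the main retinal oxidase of trunk mesoderm, was at 176, 167 and 164 CPM in ES-FLB and at 29.4, 30.8 and 32.7 CPM in ES-HLB. The groups lay far apart, with a 5.46-fold higher mean in ES-FLB, a log2 difference of -2.43 ± 0.06 (SE) and an adjusted p of 2.95e-23. Rdh10, the retinol dehydrogenase, was at 72.6, 86.1 and 76.8 CPM in ES-FLB and at 51.1, 53.3 and 47.9 CPM in ES-HLB. These ranges did not overlap either, and the difference was -0.62 ± 0.07 (adjusted p = 1.72e-08).

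Aldh1a3, a retinal oxidase better known from eye and nose, was at 15.7, 14.4 and 22.4 CPM in ES-FLB and at 7.79, 9.54 and 8.86 CPM in ES-HLB, a difference of -0.94 ± 0.14 (adjusted p = 5.67e-06). Every ES-FLB library was above every ES-HLB library. Aldh1a1, the retinal oxidase of the dorsal eye and several adult organs, had 6 to 17 reads in ES-FLB and 0 to 1 read in ES-HLB, and too few libraries reached 1 CPM for it to be tested.

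Cyp26a1, the enzyme of breakdown that retinoic acid itself induces, was the member with the largest increase in ES-HLB. It stood at 0.851, 0.909 and 0.244 CPM in ES-FLB (2 to 7 reads) and at 5.36, 6.84 and 5.15 CPM in ES-HLB (42 to 48 reads). The ranges were well separated, with an 8.66-fold higher mean, a difference of 2.47 ± 0.26 and an adjusted p of 3.92e-09. Cyp26a1 reached 1 CPM, the level required for the test, only in ES-HLB. Its call is thus partly set by that filter and is no support for a difference. The fold rests on 2 to 7 reads in ES-FLB. Cyp26b1 was at 25.8, 23.5 and 30.2 CPM in ES-FLB and 29.1, 34.3 and 31.1 CPM in ES-HLB. These ranges overlapped, and the difference of 0.25 ± 0.09 missed the threshold (adjusted p = 0.0507). Without ES-FLB replicate 3 it was 0.35 (adjusted p = 0.0119), and without ES-HLB replicate 1 it was 0.31 (adjusted p = 0.0364). Cyp26c1 had 0 to 2 reads in ES-FLB and 4 to 11 in ES-HLB and was not tested.

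Crabp1, a cytoplasmic binding protein thought to deliver retinoic acid to its breakdown, was at 188, 182 and 169 CPM in ES-FLB and 280, 261 and 276 CPM in ES-HLB. It was higher in each ES-HLB library, by 0.60 ± 0.04 (adjusted p = 3.61e-12). Crabp2, which carries retinoic acid to its receptors, differed by 0.19 ± 0.06 (adjusted p = 0.0259), from 75.1 to 85.2 CPM in ES-FLB and from 84.8 to 100.01 CPM in ES-HLB. The ranges touched, and the call was lost without ES-FLB replicate 1 (0.18, adjusted p = 0.0903), ES-FLB replicate 2 (0.16, 0.132) or ES-HLB replicate 1 (0.12, 0.230). Rarb, the receptor gene that carries the repeat shown above, was at 8.76, 9.22 and 8.41 CPM in ES-FLB and 7.02, 6.69 and 8.38 CPM in ES-HLB. Its difference of -0.25 (95% interval -0.54 to 0.05) missed the threshold at an adjusted p of 0.248. Markers of other cells also differed between the sorted groups: erythroid genes summed to 5.24 to 7.92 CPM in ES-FLB and 84.8 to 160 CPM in ES-HLB. Genes of surface ectoderm and epithelium summed to 88.1 to 139 CPM in ES-FLB and 175 to 190 CPM in ES-HLB. The 4 endoderm genes summed to 52.5 to 66.0 and 20.1 to 26.6 CPM, a gap that lay mostly in Afp (43.1 to 52.4 CPM in ES-FLB and 9.32 to 15.7 CPM in ES-HLB), with group means of Foxa1 at 3.34 and 2.46, Foxa2 at 3.47 and 3.12, and Sox17 the other way at 3.98 and 5.16. The 4 neural tube genes summed to 8.57 to 12.7 and 21.6 to 27.3 CPM, mostly from Sox2 (group means of 8.89 and 23.3), with Sox1 at 0.909 to 1.34 and 0.855 to 1.80 CPM and Pax6 and Olig2 near 0. Their part in these differences was not tested.

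Other genes of retinoid biology moved in the same comparison. Of 38 genes in 4 lists, 37 were in the table, 27 were tested and 15 passed, 3 higher and 12 lower in ES-HLB, beside the 25.1% of all genes. Among the 5 other retinoid receptor genes, 3 were lower in ES-HLB and none was higher: Rara by -0.36, Rxra by -0.34 and Rxrg by -0.89 (adjusted p = 4.96e-05, 9.57e-06 and 0.00816), while Rarg (0.02) and Rxrb (-0.11) did not pass. The call of Rxrg was lost without ES-HLB replicate 1 (-0.73, adjusted p = 0.0539). Of 9 genes for retinol transport and storage, 5 were tested. Stra6, the membrane receptor that takes up retinol, was lower (-0.71). Rbp4 and Ttr, which carry retinol in blood and are made by endoderm and liver, were higher, both by 1.14. With all 26 libraries in the same model Rbp4 (adjusted p = 0.26), Ttr (0.0995) and Stra6 (0.0828) lost their calls.

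Of 12 retinol and retinal oxidoreductase genes, 8 were tested, 1 was higher and 2 were lower. Dhrs3, which reduces retinal back to retinol and is known to respond to retinoic acid, was at 1.30 to 1.46 CPM in ES-FLB and 10.7 to 13.2 CPM in ES-HLB, a difference of 2.71 (adjusted p = 2.81e-13). That value was close in size to the 2.47 of Cyp26a1. Adh1 differed by -1.77 and Dhrs4 by -0.48. Adh1 was at 2.08 to 2.32 CPM in ES-FLB and 0.128 to 0.719 CPM in ES-HLB, and its difference depends on the pseudocount. Only ES-FLB brought it to the level required for the test. Its call is thus partly set by that filter and is no support for a difference. Of 12 genes with described retinoic acid response elements, 9 were tested, 5 were lower in ES-HLB and none was higher. Among them were Hoxb5 (-2.70), Hoxb4 (-1.78), Meis1 (-0.62) and Nrip1 (-0.25), Hox and Meis genes being known for position along the body axis. The call of Nrip1 was lost without any of 4 of the 6 libraries.

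**Figure D2:**
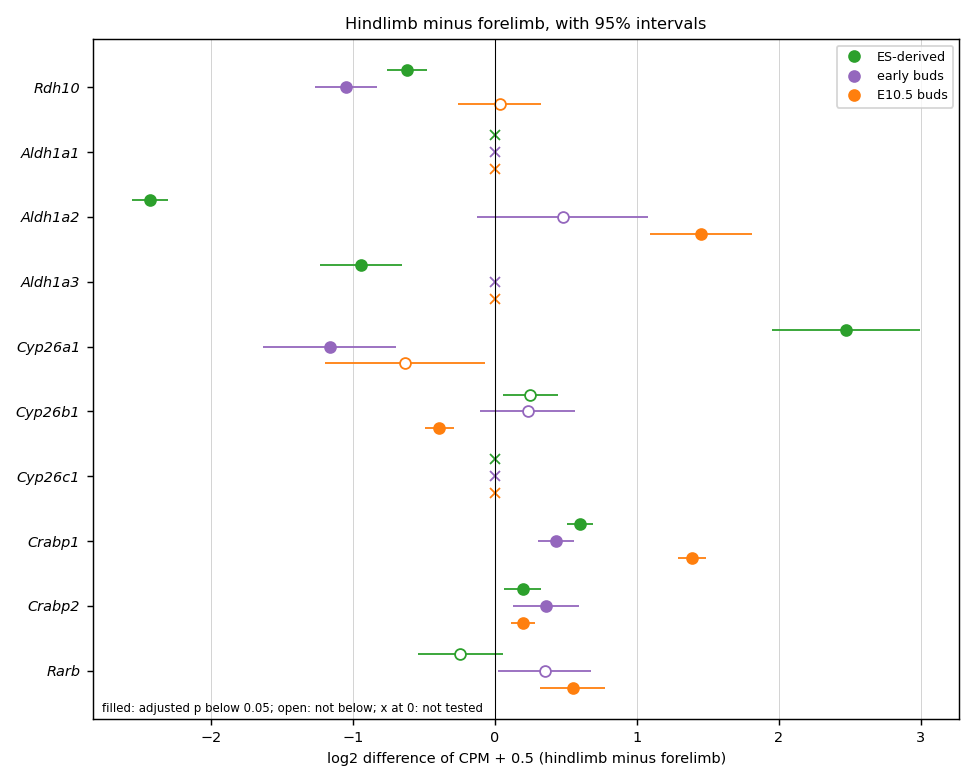
Log2 difference of CPM + 0.5, hindlimb minus forelimb, on the x axis for each gene, with bars for 95% intervals, in ES-derived cells, early buds and E10.5 buds. Filled points passed an adjusted p of 0.05, open points did not, and a cross at 0 marks a gene not tested. Aldh1a2 and Cyp26a1 lie on opposite sides of 0 in ES-derived cells and in buds, with open points for Aldh1a2 in early buds and Cyp26a1 in E10.5 buds.

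The same comparison in the embryo gave another pattern for the synthesis and breakdown genes. In early buds 7 genes were tested and 4 passed, 2 higher and 2 lower in HLB, beside 20.3% of 12503 genes. Rdh10 was at 50.9, 44.8 and 49.4 CPM in early FLB and 19.6, 24.4 and 25.8 CPM in early HLB, and was lower in HLB by 1.05 on the log2 scale with no overlap (-1.05 ± 0.10, adjusted p = 7.66e-05). Cyp26a1 was at 5.57, 4.59 and 7.49 CPM in early FLB and 1.88, 3.17 and 2.02 CPM in early HLB. It was lower in each HLB library (-1.16 ± 0.21, adjusted p = 0.00369).

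Aldh1a2 was at 41.0, 42.2 and 45.9 CPM in early FLB and 42.1, 76.8 and 67.1 CPM in early HLB. Replicate 1 of early HLB lay within the forelimb range and the others above it, and the difference of 0.48 ± 0.24 did not pass (adjusted p = 0.230). Without that library it was 0.73 (adjusted p = 2.55e-05). The same library decided Rarb, at 59.5, 56.5 and 54.1 CPM in early FLB and 57.6, 78.8 and 83.4 CPM in early HLB: the difference was 0.35 ± 0.14 (adjusted p = 0.123) with it and 0.51 (adjusted p = 0.000109) without it. Crabp1 was higher in HLB (0.43 ± 0.06, adjusted p = 0.000475). Crabp2 was higher by 0.36 ± 0.10 (adjusted p = 0.0427), a call lost without early FLB replicate 1 (0.34, adjusted p = 0.136) or 3 (0.31, 0.112) and without early HLB replicate 1 (0.29, 0.125) or 3 (0.33, 0.125). Cyp26b1 differed by 0.23 (95% interval -0.10 to 0.56, adjusted p = 0.303), and its highest value, 78.7 CPM, was in early HLB replicate 1. Aldh1a1 had 18 to 26 reads in early FLB and 1 to 5 in early HLB, Cyp26c1 3 to 6 and 3 to 7, and Aldh1a3 1 to 5 and 1 to 2; none of these reached the level required for the test.

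Whether limb type differed more in culture than in early buds was tested directly by the difference of both differences. Of 9 genes tested, 4 passed, 2 in each direction, beside 22.7% of 13615 genes. Aldh1a2 gave -2.91 ± 0.26 (adjusted p = 4.64e-05) and Cyp26a1 gave 3.64 ± 0.35 (adjusted p = 3.83e-07), and for both the sign in culture was opposite to that in the early buds, where Aldh1a2 itself had not passed. Rarb gave -0.60 ± 0.16 (adjusted p = 0.0115). Rdh10 gave 0.43 ± 0.13 (adjusted p = 0.0199), with a smaller deficit of hindlimb type in culture than in early buds. The call of Rdh10 was lost without early FLB replicate 1 (0.39, adjusted p = 0.0564), ES-FLB replicate 1 (0.37, 0.0614) or ES-HLB replicate 2 (0.39, 0.0568). Crabp1 (0.17, 95% interval 0.01 to 0.32, adjusted p = 0.117), Crabp2 (-0.17, -0.47 to 0.13) and Cyp26b1 (0.02, -0.37 to 0.41) did not pass. Neither did Aldh1a3 (-0.72, -1.30 to -0.14, adjusted p = 0.0681), which passed with a pseudocount of 1 (-0.78, 0.0158), nor Aldh1a1 (-0.50, -1.27 to 0.28, adjusted p = 0.377), and Cyp26c1 was not tested.

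At E10.5, 7 genes were tested between HLB and FLB and 5 passed, 4 higher and 1 lower in HLB, beside 24.3% of 12574 genes. By the study's account the early stage lay further back for FLB than for HLB. Limb type and the time since that stage therefore cannot be told apart at E10.5 either. Crabp1 differed most surely: it was at 152, 155 and 147 CPM in FLB and at 412 and 381 CPM in HLB, a difference of 1.39 ± 0.05 (adjusted p = 1.38e-29). Aldh1a2 was at 6.50, 7.45 and 6.62 CPM in FLB and 15.6 and 24.7 CPM in HLB. The HLB libraries were both above the FLB libraries (1.45 ± 0.18, adjusted p = 4.74e-09), though unlike each other. Rarb was at 21.7, 21.2 and 26.7 CPM in FLB and 32.0 and 35.97 CPM in HLB (0.55 ± 0.11, adjusted p = 0.000216). Crabp2 was higher by 0.20 ± 0.04 (adjusted p = 0.000276).

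Cyp26b1, the enzyme that clears retinoic acid from the distal limb bud, was the gene lower in E10.5 HLB, at 226, 223 and 219 CPM in FLB and 167 and 172 CPM in HLB (-0.39 ± 0.05, adjusted p = 1.48e-08). Cyp26a1 (-0.63 ± 0.28, adjusted p = 0.0934) and Rdh10 (0.03, 95% interval -0.26 to 0.33, adjusted p = 0.905) did not pass. The count of 5 was 3 with all 26 libraries in the same model, where Cyp26b1 (adjusted p = 0.134) and Crabp2 (0.676) lost their calls, and 3 with limma without trend and robust estimation, where Rarb (0.0693) and Crabp2 (0.113) did. Aldh1a1, Aldh1a3 and Cyp26c1 had at most 4 reads in any E10.5 limb bud.

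Between the early stage and E10.5 Cyp26b1 rose in both limb buds, while Aldh1a2, Rdh10, Rarb and Crabp1 fell. The early libraries were sequenced to greater depth than all others, so stage cannot be told apart from that difference. Aldh1a1, Aldh1a3 and Cyp26c1 were not tested with stage in either limb type. In FLB all 7 genes tested passed, 2 higher and 5 lower at E10.5, beside 64.8% of 12767 genes. Cyp26b1 rose from 52.2, 54.3 and 52.5 CPM to 226, 223 and 219 CPM, a change of 2.06 ± 0.05 (adjusted p = 3.99e-15). Aldh1a2 fell from between 41.0 and 45.9 CPM to between 6.50 and 7.45 CPM (-2.57 ± 0.10, adjusted p = 7.77e-13), and Rdh10 from between 44.8 and 50.9 to between 12.6 and 17.4 CPM (-1.61 ± 0.11, adjusted p = 4.45e-09). No range overlapped for these genes. Crabp1 (-1.42), Rarb (-1.28) and Cyp26a1 (-0.63) fell as well, and Crabp2 rose by 0.43 (adjusted p = 1.74e-06). The call of Cyp26a1 was lost without early FLB replicate 3 (-0.45, adjusted p = 0.0651).

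In HLB, 5 of 7 genes passed, 1 higher and 4 lower at E10.5, beside 28.9% of 12400 genes. Cyp26b1 rose from 78.7, 52.5 and 58.3 CPM to 167 and 172 CPM (1.44 ± 0.17, adjusted p = 0.00251). Rarb fell from 57.6 to 83.4 CPM down to 32.0 and 35.97 CPM (-1.08 ± 0.16, adjusted p = 0.00298). Both changes left the ranges apart. Rdh10 (-0.53 ± 0.13, adjusted p = 0.0095) and Crabp1 (-0.46 ± 0.06, adjusted p = 0.000498) fell, and so did Aldh1a2 (-1.59 ± 0.37, adjusted p = 0.0473). The call of Aldh1a2 was lost without early HLB replicate 2 (-1.42, adjusted p = 0.142) or 3 (-1.51, 0.171) and without E10.5 HLB replicate 1 (-1.27, 0.0976), and the call of Rdh10 without E10.5 HLB replicate 1 (-0.53, 0.0757) or 3 (-0.54, 0.0739). Leaving out E10.5 HLB replicate 1 thus gave a count of 3 in place of 5. Such a fit has 1 E10.5 HLB library, which is assumed to vary like the early ones, and the value of Rdh10 hardly moved in it. Crabp2 (0.27, adjusted p = 0.0717; without early HLB replicate 1, 0.34 and 0.0065) and Cyp26a1 (-0.10, 95% interval -0.68 to 0.49) did not pass.

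The change with stage differed between limb types for 3 of 7 genes tested, 2 more positive and 1 more negative in HLB, beside 22.8% of 12987 genes, in a comparison added after the data were seen. Crabp1 fell less in HLB (0.95 ± 0.08, adjusted p = 1.47e-07) and Rdh10 fell less in HLB (1.08 ± 0.18, adjusted p = 0.00034), while Cyp26b1 rose less in HLB (-0.62 ± 0.17, adjusted p = 0.0266). For Cyp26b1 the adjusted p was 0.0506 to 0.0936 without any of 8 of the 11 libraries: each of the 3 early FLB, the 3 E10.5 FLB and both E10.5 HLB libraries. Aldh1a2 (0.97 ± 0.34, adjusted p = 0.0753) passed without early HLB replicate 1 (0.72, 0.0207) or 2 (1.15, 0.0232) and without E10.5 HLB replicate 1 (1.30, 0.0316). Crabp2 (-0.17) passed without early HLB replicate 2 (-0.27, adjusted p = 0.0192), so the count of 3 became 5 without that library. Cyp26a1 (0.53, adjusted p = 0.253) and Rarb (0.20, 0.495) did not pass. By the study's account early FLB was younger than early HLB, so the interval to E10.5 was longer in FLB. Limb type and the length of that interval therefore cannot be told apart in any of these differences.

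**Figure D3:**
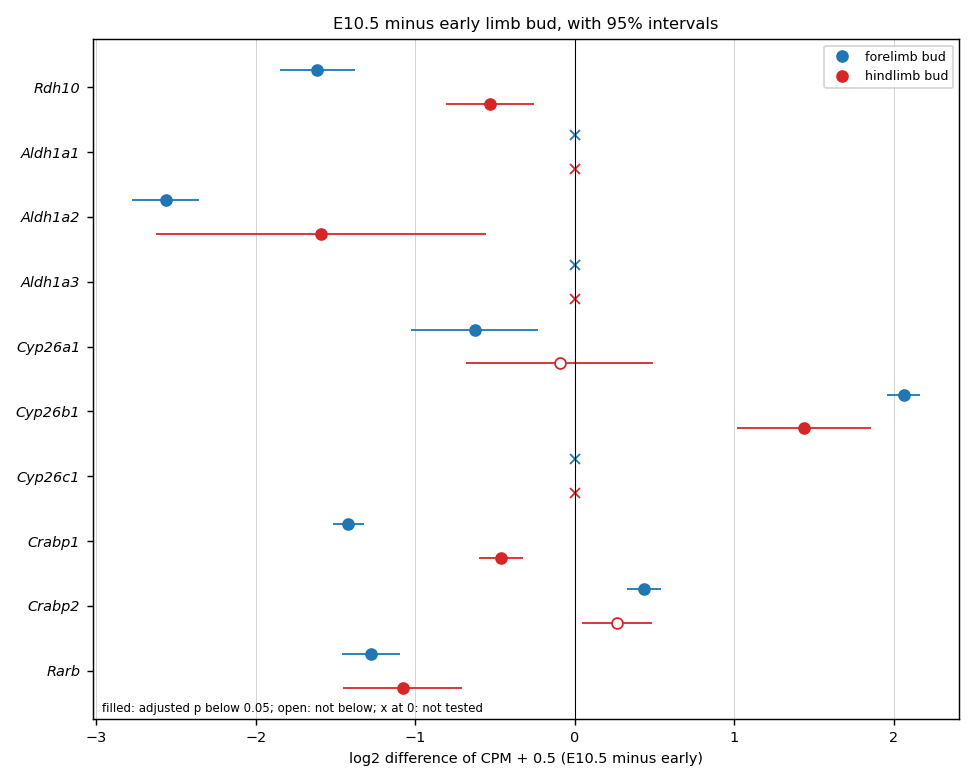
Log2 difference of CPM + 0.5, E10.5 minus early limb bud, on the x axis for each gene, with bars for 95% intervals; forelimb buds are blue and hindlimb buds red. Filled points passed an adjusted p of 0.05, open points did not, and crosses at 0 mark genes not tested. Cyp26b1 lies right of 0 and Aldh1a2, Rdh10, Rarb and Crabp1 left of 0 in both limb types, with smaller changes of Rdh10 and Crabp1 in hindlimb buds.

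ES-derived cells were set against the early bud of their own limb type, a comparison of sorted cells of a single line with whole tissue of Slc:ICR embryos. In ES-FLB 9 genes were tested and 8 passed, 3 higher and 5 lower, where 82.1% of 13113 genes did. In ES-HLB 8 were tested and 8 passed, 3 higher and 5 lower, where 78.6% of 13178 genes did. Shares near those of all genes say little of these genes as a group, and their sizes are given instead.

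Rarb was far lower in ES-derived cells of both types, at 8.41 to 9.22 CPM in ES-FLB and 6.69 to 8.38 CPM in ES-HLB, against 54.1 to 83.4 CPM in the early buds. The changes were -2.62 ± 0.08 (adjusted p = 8e-14) and -3.22 ± 0.14 (adjusted p = 5.88e-10). Rarb overlaps Top2b and an antisense gene on the other strand, and since the strand setting of the counting was not given in the sources used here, reads of these genes cannot be told apart. Crabp2 was lower by -1.98 and -2.15, Crabp1 by -1.17 and -1.01, and Cyp26b1 by -0.99 and -0.97. Rdh10 was higher in both, by 0.69 and 1.12. Aldh1a3 had 111 to 184 reads in ES-FLB and 61 to 74 in ES-HLB but only 1 to 5 in the deeper early buds. Its differences of 4.73 and 4.01 depend on the pseudocount. Aldh1a3, counted among the genes higher in both comparisons, reached the level required for the test only through the ES-derived cells. Its calls are thus partly set by that filter and are no support for a difference.

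Both types diverged from their buds in opposite directions for Aldh1a2 and Cyp26a1. Aldh1a2 was above the early bud in ES-FLB (1.96 ± 0.06, adjusted p = 3.11e-14) and below it in ES-HLB (-0.95 ± 0.23, adjusted p = 0.0116). Cyp26a1 was below the early bud in ES-FLB (-2.48 ± 0.25, adjusted p = 4.48e-07) and above it in ES-HLB (1.16 ± 0.20, adjusted p = 9.61e-05). Against ES-FLB, Cyp26a1 reached the level required for the test only through early FLB. That call is thus partly set by the filter and is no support for a difference. The test of the opposite directions of both genes is the one given above for limb type in culture and in buds. Aldh1a1 did not pass in ES-FLB (0.26, adjusted p = 0.352), though without ES-FLB replicate 1 it did (0.56, adjusted p = 0.0478). It was not tested in ES-HLB, and Cyp26c1 was tested in neither.

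Within each family the dominant member was compared per kilobase of exon. Aldh1a2 made up 87.3% to 99.7% of the Aldh1a sum in every group except Ca, where it was 58.8% ± 7.44 (SD, n = 3) and Aldh1a1 40.9% ± 7.70. Aldh1a3 reached its largest share, 12.6% ± 0.957, in ES-HLB. Cyp26b1 led the Cyp26 family in all limb buds and in ES-derived cells, from 61.3% in ES-HLB to 96.2% in E10.5 HLB. It also led in Ca at 91.1%, while Cyp26a1 led in TB at 92.6% ± 2.37 (n = 3). In BA no enzyme held most of the sum, with 45.3% Cyp26a1 and 39.7% Cyp26b1, and Cyp26c1 making up the rest. Cyp26a1 took 7.15% ± 4.25 of the family in ES-FLB and 33.4% ± 1.17 in ES-HLB. Crabp1 exceeded Crabp2 in early buds (60.1% and 61.2%), in ES-derived cells (72.5% and 77.7%) and in Ca (66.1% ± 8.53). It fell short of Crabp2 in E10.5 FLB (29.4% ± 0.249) and TB (37.0%). The share of Crabp1 was near an even split in BA (52.3% ± 2.57) and E10.5 HLB (48.8% ± 1.26, n = 2).

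**Figure D4:**
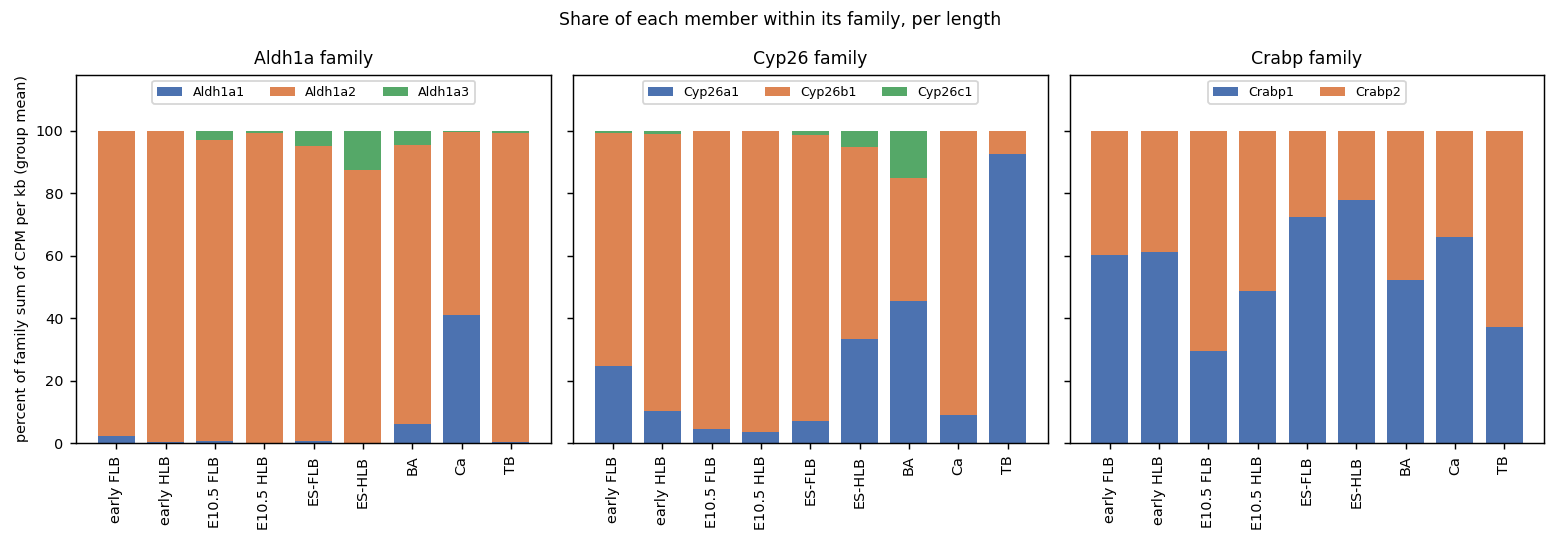
Share of each gene in the sum of its family, in percent of CPM per kilobase (group means, y axis from 0), for the 9 groups on the x axis and the Aldh1a, Cyp26 and Crabp families in 3 panels. Aldh1a1 has its largest share in Ca (40.9%), Cyp26a1 in TB (92.6%), and Cyp26c1 in BA, where Cyp26a1 and Cyp26b1 hold 45.3% and 39.7%.

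Of the other E10.5 tissues, Ca had the highest mean of Aldh1a1 among all groups, TB that of Cyp26a1 and BA that of Cyp26c1. BA, Ca and TB were each compared with E10.5 FLB in a model of all 26 libraries, so these comparisons share the FLB libraries. In BA 7 of 10 genes passed, 5 higher and 2 lower, beside 20.8% of 14438 genes. Cyp26c1, among those higher, reached the level required for the test only through BA itself. Its call in BA is thus partly set by that filter and is no support for a difference. In Ca 7 passed, 2 higher and 5 lower (74.7% of all genes), and in TB 7 passed, 4 higher and 3 lower (45.7%).

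Cyp26b1 was lower than in FLB in all 3 tissues, at 21.3 to 26.3 CPM in BA, 10.3 to 15.03 in Ca and 3.22 to 5.51 in TB, against 219 to 226 CPM. The differences were -3.24 ± 0.16, -4.05 ± 0.16 and -5.52 ± 0.16. TB, which is kept low in retinoic acid by CYP26A1, had the highest Cyp26a1 of all groups, 16.8, 20.1 and 19.8 CPM (2.25 ± 0.24, adjusted p = 2.16e-09). It also had the highest Aldh1a2 of the embryonic groups, 91.7, 74.6 and 84.5 CPM (3.51 ± 0.20, adjusted p = 4.8e-11), beside 594 to 610 CPM of genes of somites and paraxial mesoderm, a tissue known for Aldh1a2, against at most 106 elsewhere. The part of these cells in the level of Aldh1a2 was not tested.

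Ca had the highest Aldh1a1, 43.0, 35.6 and 33.9 CPM (248 to 330 reads), where every other library had at most 26 reads. An antisense gene overlaps Aldh1a1 as well. Aldh1a2 was at 50.3, 39.5 and 67.3 CPM in Ca, higher than in FLB by 2.81 ± 0.20 (adjusted p = 2.3e-10). Genes of the epicardium, where Aldh1a2 is known to be made, summed to 298 to 347 CPM in Ca and to 128 to 144 CPM in E10.5 FLB. Of the 4 genes, Upk3b (140 CPM on average), Tcf21 (49.4) and Wt1 (48.0) were at 3.42 CPM or less in FLB, while Tbx18, also a limb gene, was at 88.8 CPM in Ca and 131 CPM in FLB. Their part in these levels was not tested. Crabp2 (-4.95 ± 0.24) and Crabp1 (-2.72 ± 0.39) were lowest in Ca, although Ca replicate 3, with 68.0 CPM of Crabp1 and 25.7 CPM of Crabp2, stood above the other two (11.2 and 14.7, and 9.13 and 9.58 CPM). Rdh10 (-0.86) and Cyp26a1 (-2.14) were lower in Ca as well.

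BA was the only group in which Cyp26c1, a CYP26 enzyme of the embryonic head, passed 11 reads in a library. It had 17 to 34 reads there, 0 reads in all Ca and TB libraries and 0 to 1 in E10.5 FLB, and no fold is given against so few. Cyp26a1 (1.19), Aldh1a2 (1.33), Aldh1a3 (1.35) and Aldh1a1 (1.54) were higher in BA than in FLB, the last with 3.08 CPM in BA replicate 3 against 0.564 and 0.583 CPM in the other two. Rarb did not pass in BA (-0.23, 95% interval -0.51 to 0.05) or Ca (-0.03, -0.30 to 0.25) and was lower in TB (-1.27 ± 0.14, adjusted p = 5.4e-09). Crabp2 was lower than in FLB in BA (-0.76, adjusted p = 0.0314) and TB (-0.68, adjusted p = 0.028). Both calls were lost without any single library of the compared groups (adjusted p = 0.0592 to 0.103 in BA and 0.0542 to 0.0649 in TB). The differences themselves hardly moved, from -0.80 to -0.70 in BA and -0.70 to -0.67 in TB. Ranges of Crabp2 did not overlap, at 411 to 428 CPM in FLB, 228 to 262 in BA and 257 to 266 in TB. The model also holds Ca replicate 3, which stood apart in Crabp2. Crabp1 did not pass in BA (0.63, adjusted p = 0.297) or TB (-0.19, 0.731) in the model that holds Ca replicate 3, and passed in both with the compared libraries alone (0.000533 and 0.00184). Aldh1a3 was higher in TB (1.12, adjusted p = 0.00336), from 9 to 16 reads against 1 to 4 in FLB, and did not pass in Ca (0.07, adjusted p = 0.841). Nor did Aldh1a1 in TB (0.49, adjusted p = 0.211), Rdh10 in BA (0.29, 0.148), or Cyp26c1 in Ca and TB, where it had 0 reads. Rdh10 was higher in TB (0.47, adjusted p = 0.0058), a call lost without E10.5 FLB replicate 2 (0.33, adjusted p = 0.057).

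**Figure D5:**
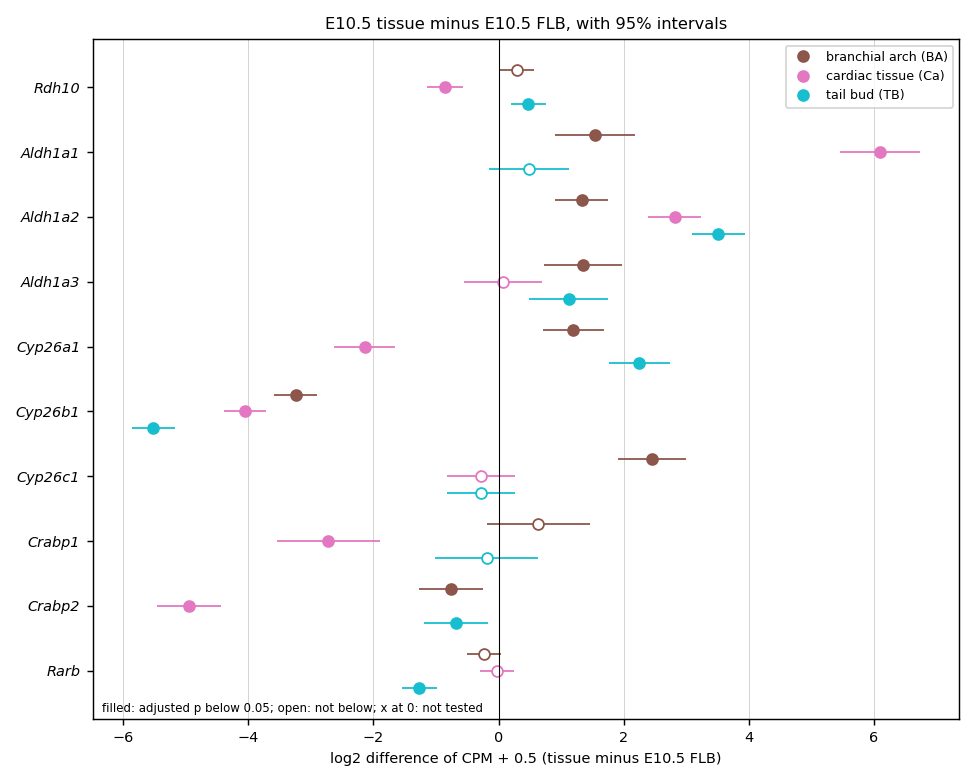
Log2 difference of CPM + 0.5, E10.5 tissue minus E10.5 FLB, on the x axis for each gene, with bars for 95% intervals, for branchial arch, cardiac tissue and tail bud. Filled points passed an adjusted p of 0.05 and open points did not. Cyp26b1 lies far left of 0 in all 3 tissues and Aldh1a1 far right in Ca; values of Aldh1a1, Aldh1a3 and Cyp26c1 rest on 0 to 4 reads in FLB and depend on the pseudocount.

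The 9 groups were ordered by mean level for each gene, and 80 pairs of neighbours in these orders were read for whether they differed beyond the spread, in the model of 26 libraries. Only 28 were told apart, and the share of all 14438 genes called in the same pair of groups, 18.9% to 78.5% over the 36 possible pairs, is given in brackets beside each. Neighbours were chosen by the order of the same means, so the p-values of these pairs serve only to say which were not told apart. Steps told apart are listed as a description of the order. Aldh1a2 ran ES-FLB, TB, early HLB, Ca, early FLB, ES-HLB, E10.5 HLB, BA, E10.5 FLB. Its steps told apart were ES-FLB above TB (73.3%), early FLB above ES-HLB (75.9%), ES-HLB above E10.5 HLB (68.7%) and BA above E10.5 FLB (20.8%). Rdh10 ran ES-FLB, ES-HLB, early FLB, early HLB, TB, BA, E10.5 HLB, E10.5 FLB, Ca. Here ES-FLB stood above ES-HLB (19.9%), early FLB above early HLB (18.9%) and E10.5 FLB above Ca (74.7%).

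Aldh1a3 stood out in ES-FLB (17.5 CPM ± 4.30, SD, n = 3), above ES-HLB (8.73 ± 0.883) in the same pair as Rdh10. ES-HLB was above BA (1.77 ± 0.514; 65.1%) and TB above Ca (73.5%). Aldh1a1 stood out in Ca, above ES-FLB (78.5%), and BA and early FLB came next and were not told apart from ES-FLB or each other, with early FLB above TB (53%).

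For Cyp26a1 the order was TB, BA, early FLB, ES-HLB, E10.5 FLB, early HLB, E10.5 HLB, ES-FLB, Ca. The steps told apart were TB above BA (44.7%), BA above early FLB (60.8%), ES-HLB above E10.5 FLB (66.7%) and E10.5 HLB above ES-FLB (70.1%), and 6 steps were told apart without Ca replicate 3. For Cyp26b1 it was E10.5 FLB, E10.5 HLB, early HLB, early FLB, ES-HLB, ES-FLB, BA, Ca, TB. E10.5 HLB was above early HLB (28.9%), early FLB above ES-HLB (75.9%), BA above Ca (74.9%) and Ca above TB (73.5%). For Cyp26c1 BA was above ES-HLB (65.1%) and ES-HLB above early HLB (75.3%), and no other neighbours were told apart. The second step rests on 4 to 11 against 3 to 7 reads in libraries of unequal depth. Cyp26c1 entered this model through its level in BA and was too low to be tested in the fit of ES-HLB and early HLB alone.

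Rarb ran early HLB, early FLB, E10.5 HLB, E10.5 FLB, Ca, BA, TB, ES-FLB, ES-HLB, with early FLB above E10.5 HLB (44.5%), E10.5 HLB above E10.5 FLB (20.9%) and BA above TB (44.7%). TB, ES-FLB and ES-HLB lay at the bottom of that order, and neither of the steps between neighbours there was told apart. Crabp1 ran early HLB, early FLB, E10.5 HLB, ES-HLB, BA, ES-FLB, E10.5 FLB, TB, Ca, and 1 of its 8 steps was told apart, TB above Ca (73.5%). Without Ca replicate 3, 6 steps were told apart. Crabp2 ran E10.5 HLB, E10.5 FLB, early HLB, early FLB, TB, BA, ES-HLB, ES-FLB, Ca, with BA above ES-HLB (65.1%) and ES-FLB above Ca (78.5%) told apart, and 4 steps without that library.

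Genes with the most similar pattern over the 9 group means were sought among 10161 genes that reached 16 CPM in a group, by Pearson's r of log2(CPM + 0.5), as a description of 9 points. For Cyp26c1 they were Dlx1as (0.98), AI606473 (0.95) and Dlx6 (0.93), all highest in BA. Aldh1a1 was near to Ddc (0.98) and Cpne5 (0.97), both highest in Ca, and Cyp26b1 to 6230427J02Rik (0.92), Mat2b (0.92) and Tbx15 (0.91), highest in E10.5 limb buds. Cyp26a1 was nearest to Wdr90 (0.90), Camkv (0.89) and Tspan14 (0.86), and Aldh1a2 to Gse1 (0.84), Slc1a4 (0.83) and Lrrc32 (0.82), the lowest values of any member. Rdh10 was nearest to Acaca (0.97), 0610007P08Rik (0.97) and Fnip2 (0.97), and Aldh1a3 to Pcdhga10, Mkl1 and Anks3 (each 0.98). Rarb was nearest to Bola1, Ngdn and Psmd9 (each 0.97), Crabp1 to Terf1 (0.99), Zc3hc1 (0.98) and Mzt2 (0.96), and Crabp2 to Dem1, Srsf7 and Ccnj (each 0.99).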

How the data were processed

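The authors mapped single-end reads of stranded mRNA libraries to mm10 with RefSeq genes and, per the submitters' processing notes, used FastQC 0.11.5, HISAT2 2.0.4, Cuffdiff, Cufflinks 2.1.1 and edgeR 3.16.2; the counting's strand setting is not given in the sources used here. They deposited CPM, 1 value per gene and library, summing to 1000000 in each. The 10 genes and the gene lists were chosen with earlier results of these data known. All 10 were named, genes of the wider lists where they passed the test in ES-HLB against ES-FLB or reached 16 CPM in a group, and for each of the 10 the 3 genes of highest Pearson r over group means; a few genes that this rule names are not reported here.

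CPM were rescaled by a trimmed mean of log ratios (30% and 5% trimmed). Low values fall on steps that equal 1 read, from which each library's depth and its limit of 3 reads were taken (counting error only); within 0.02 read, 92.3% to 92.7% of values were whole in early limb buds and 98.6% to 98.9% in the others. As they fall short of whole counts in places, log2(CPM + 0.5) was tested with limma 3.58.1 (trend, robust; R 4.3.3), for genes reaching 1 CPM in 3 or more libraries of the comparison, with Benjamini-Hochberg adjustment over all of them. Pairs of limb groups were fitted with their own libraries; BA, Ca, TB and the order of groups with all 26. The labels do not say that replicates came from separate embryos or cultures, so p-values measure the spread between libraries, which may be technical. The procedure was tested on simulated data. Lengths per kilobase are unions of GENCODE vM21 exons, and sequences are from RefSeq (GRCm38.p6). Python 3.11.15 drew the figures.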

Additional observations from a re-analysis of the deposited data

Results flagged for a closer look

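The limb type difference in culture departed from that in early buds for 4 genes by a test of the difference itself: Aldh1a2 (-2.91), Cyp26a1 (3.64), Rdh10 (0.43) and Rarb (-0.60), on the log2 scale of CPM + 0.5. The change from early bud to E10.5 differed between hindlimb and forelimb for Cyp26b1 (-0.62), Rdh10 (1.08) and Crabp1 (0.95). The forelimb interval was the longer by the study's account, so limb type and interval cannot be told apart there. Replicate 2 of E10.5 HLB, used in no comparison, held 13 reads of Cyp26a1, 89 of Rdh10, 199 of Rarb and 2669 of Crabp2, above the limit of 3 reads, and these scaled to 2.31, 15.8, 35.3 and 474 CPM, next to 1.76 to 2.53, 15.7 to 15.9, 32.0 to 35.97 and 481 to 485 CPM in the other two libraries. It listed Aldh1a2, Aldh1a3, Cyp26b1 and Crabp1 at 0, of which Cyp26b1 was at 167 and 172 CPM and Crabp1 at 412 and 381 CPM in the others.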

How the results depend on the processing

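Counts of genes past the threshold stayed within 1.5 times under all settings tried except these. In E10.5 HLB against E10.5 FLB the count was 3 with all 26 libraries in the same model and 3 with limma without trend and robust estimation, against 5. For the change with stage in hindlimb against forelimb buds it was 5 without a filter, against 3. Leaving out 1 library at a time gave 5 to 7 (ES-HLB against ES-FLB), 3 to 5 (early buds), 3 to 4 (culture against early buds), 5 (E10.5 buds), 6 to 7 (stage in FLB), 3 to 6 (stage in HLB), 7 to 8 (ES-FLB and ES-HLB each against its bud), 6 (BA), 7 (Ca), 5 to 6 (TB), 2 to 5 (stage change between limb types) and 24 to 38 (neighbours told apart of 80).

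Signs turned only for values that passed the test in neither fit. With CPM as deposited Cyp26b1 in culture against early buds was -0.035 and Rdh10 between E10.5 buds -0.025, and with median-of-ratios scaling Rarb in Ca was 0.028. Over fits without 1 library these values ran from -0.10 to 0.19 (Cyp26b1), -0.11 to 0.12 (Rdh10), and -0.086 to 0.092 (Rarb), Cyp26a1 in E10.5 HLB against early HLB from -0.31 to 0.11, and Aldh1a3 in Ca ran from -0.32 to 0.33. CPM as deposited put the median of all genes at 0.23 in ES-FLB against early FLB, 0.18 in ES-HLB against early HLB, 0.14 in stage in FLB and -0.13 in Ca, against -0.02 to 0.01 after scaling. With all libraries in the same model Crabp1 lost its call in ES-HLB against ES-FLB (adjusted p = 0.336), early buds (0.528), stage in HLB (0.471) and the stage change (0.279), and with the compared libraries alone it passed in BA (0.000533) and TB (0.00184); Ca replicate 3 stands apart in that gene. Crabp2 lost its call with all libraries in ES-HLB against ES-FLB (0.657), early buds (0.358) and stage in FLB (0.136).

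Same-numbered libraries deviated together by r of -0.09 to 0.13, so replicate numbers were not taken as pairs. With the replicate number as a block, counts were 7 in ES-HLB against ES-FLB (Cyp26b1 passing at 0.25, adjusted p = 0.014), 3 in early buds, 4 in culture against early buds, 5 between E10.5 buds, 7 and 5 for stage in FLB and HLB, 8 and 8 for ES-FLB and ES-HLB against their buds, 7 in each of BA, Ca and TB, 4 for the stage change and 28 neighbours told apart. The block turned the sign of Rdh10 between E10.5 buds (-0.11) and of Cyp26a1 in HLB with stage (0.10).

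Without a filter, Aldh1a1 would be -1.80 and Cyp26c1 1.16 in ES-HLB against ES-FLB, from at most 17 and 11 reads. Tests on counts with edgeR and DESeq2 were not run, because not all values were whole reads. Depth limits Aldh1a1, Aldh1a3 and Cyp26c1 in most limb libraries.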

Other observations

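Genes around the retinoic acid pathway had tissues of their own. Tgm2, a transglutaminase described as retinoic acid responsive, was at 449 CPM in Ca and at most 18.2 elsewhere. Rarg was lowest in Ca (19.1 CPM) and highest in E10.5 FLB (213 CPM), while Rara, Rxra and Rxrb ranged from 42.1 to 78.1, 82.9 to 151 and 53.1 to 86.8 CPM. Cdx1 was at 46.3 CPM in early FLB, 8.55 CPM in early HLB and at most 3.20 CPM elsewhere. Hoxb1 was at 37.0 CPM in TB and 20.1 CPM in early FLB, and Hoxd4 at 70.3 CPM in TB. Between early HLB and early FLB, 6 of the 12 genes with described response elements were lower in HLB and none was higher, of 10 tested, beside 20.3% of all genes called in either direction. Stra6 ranged from 4.78 CPM in Ca to 66.2 CPM in E10.5 FLB. Rbp4 was at 18.6 to 22.6 CPM in ES-HLB and, with a wide spread, at 1.83, 52.6 and 8.61 CPM in Ca, and ES-FLB held 9.13 CPM of Ttr where ES-HLB held 20.8 CPM. In Ca, where Ttr was at 8.37 CPM, Afp, a gene of endoderm and liver, was at 35.5, 1452 and 229 CPM. Fabp5, Adh5, Meis2, Meis1, Nrip1, Dhrs4, Rdh11, Rdh13 and Rdh14 were above 7 CPM in every group.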
